A study of Mus musculus with 31 samples.

Results

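The constitutive proteasome subunits are taken here as 34 genes named for the standard 26S proteasome. These are the 14 core genes Psma1 to Psma7 and Psmb1 to Psmb7, and the 20 cap genes Psmc1 to Psmc6 and Psmd1 to Psmd14. Of the cap genes, Psmd5, Psmd9 and Psmd10 encode assembly chaperones and are counted with the cap throughout. The 34 genes were chosen by symbol, with the inducible immunoproteasome subunits set apart. Each was read through the probe set that was brightest on average. All 34 were found among the 18147 genes on the arrays, and all 34 were among the 12890 genes bright enough to be tested. Liver RNA came from 31 female mice, 8 to 10 weeks old when the study began, of 4 inbred strains: WSB/EiJ, which derives from wild mice, and SM/J, NZW/LacJ and MA/MyJ. Mice received PF-04287881, a cationic amphiphilic candidate antibiotic, at 600 mg/kg, or sterile water as vehicle, by gavage once daily for 7 days, and the left liver lobe was taken 24 hours after the last dose. Each of the 8 groups held 4 animals, except the treated WSB/EiJ group with 3, since 1 animal died of a gavage error. The labels code MA/MyJ and NZW/LacJ for vacuolation of Kupffer cells, the resident macrophages of the liver, and NZW/LacJ also for single cell necrosis. These codes belong to the strain and stand on vehicle animals too.

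The proteasome degrades proteins that carry ubiquitin chains. Its barrel-shaped core is built from rings of alpha and beta subunits, and some of the beta subunits cut the peptide chain inside the barrel. The cap sits on the end of the core, where its ATPases unfold the substrate and push it inward, while its lid removes the ubiquitin. Liver cells use the complex for normal protein turnover and for the removal of damaged proteins. Cells that run short of proteasome activity are known to raise the transcripts of core and cap genes together through the transcription factor NRF1, encoded by Nfe2l1, which binds antioxidant response elements.

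Promoters of 5 members are shown because their genes stand for the groups described here. Psmb3 and Psmc1 had the largest average fall of the core and of the cap, and Psmd1 had the next largest fall of the cap. Psmb5 encodes a cutting subunit, and Psmd8 was the member whose average change ran the other way. Each sequence holds the 250 bases before the annotated start of the gene, 5′ to 3′ in the direction of the gene, from RefSeq on GRCm38.p6. Capitals mark matches, on either strand, to the antioxidant response element core TGACNNNGC, to CCAAT, the box bound by NF-Y, or to CCGGAAG, a site bound by ETS factors. The windows are chr11:97703184-97703433 (plus strand) for Psmb3, chr14:54617996-54618245 (minus strand) for Psmb5 and chr12:100109952-100110201 (plus strand) for Psmc1. Those of Psmd1 and Psmd8 are chr1:86064369-86064618 (plus strand) and chr7:29180674-29180923 (minus strand).
Psmb3: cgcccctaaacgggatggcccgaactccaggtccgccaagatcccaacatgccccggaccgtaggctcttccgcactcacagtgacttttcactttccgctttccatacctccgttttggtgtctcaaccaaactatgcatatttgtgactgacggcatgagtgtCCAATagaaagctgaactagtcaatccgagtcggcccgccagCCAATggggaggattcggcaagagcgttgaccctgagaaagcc
Psmb5: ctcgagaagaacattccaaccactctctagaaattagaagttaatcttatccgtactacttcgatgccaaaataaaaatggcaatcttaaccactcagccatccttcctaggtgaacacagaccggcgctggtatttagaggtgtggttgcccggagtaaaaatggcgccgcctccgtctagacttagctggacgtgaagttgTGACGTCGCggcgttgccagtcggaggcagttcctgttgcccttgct
Psmc1: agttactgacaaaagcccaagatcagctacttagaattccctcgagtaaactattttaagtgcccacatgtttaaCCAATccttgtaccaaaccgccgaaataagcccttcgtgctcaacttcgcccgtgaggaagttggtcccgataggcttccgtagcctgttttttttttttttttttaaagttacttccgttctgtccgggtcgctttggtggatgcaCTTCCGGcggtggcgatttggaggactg
Psmd1: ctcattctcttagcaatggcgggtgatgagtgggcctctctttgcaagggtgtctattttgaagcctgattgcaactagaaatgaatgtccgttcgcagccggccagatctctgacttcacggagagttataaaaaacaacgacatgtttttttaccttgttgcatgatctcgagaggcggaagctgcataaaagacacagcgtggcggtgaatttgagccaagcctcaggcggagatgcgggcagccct
Psmd8: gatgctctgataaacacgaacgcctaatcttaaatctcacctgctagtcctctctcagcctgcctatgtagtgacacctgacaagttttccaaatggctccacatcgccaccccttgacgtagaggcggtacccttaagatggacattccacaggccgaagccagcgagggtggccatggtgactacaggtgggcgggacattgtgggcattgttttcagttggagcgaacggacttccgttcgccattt

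In these windows, the Psmb3 promoter held 2 CCAAT boxes, 85 and 43 bases before the start. The Psmb5 promoter held the antioxidant response element core 47 bases before the start. The Psmc1 promoter held a CCAAT box 175 bases and an ETS site 28 bases before the start, and those of Psmd1 and Psmd8 held no match. A promoter, from 250 bases before to 50 bases after the start, was matched for 28 of the 34 members, that is for all but Psmb1, Psmb2, Psmb7, Psmc3, Psmd3 and Psmd7. The antioxidant response element core was present in 5 of these 28 members (17.9%), against 16.7% of 10394 tested genes with a promoter, and none of the 5 matches overlapped TGANTCA, the AP-1 site. The CCAAT box was present in 11 members (39.3%, against 42.3% of tested genes), 6 of 11 core and 5 of 17 cap members. The ETS site was present in 10 members (35.7%, against 18.0% of tested genes), of which 9 were among the 17 cap members and 1 among the 11 core members. These shares are descriptions of letters and no test was made of them.

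Values are log2 units per probe set, and differences are PF-04287881 minus vehicle. An error after ± is the standard error of limma's model unless it is named as an SD. A gene passed when its Benjamini-Hochberg adjusted p, over the 12890 genes tested, was under 0.05 in limma's two-sided test. The p-values measure the spread between these animals. Signal was read from whole liver, so fewer cells of a type and less RNA per cell cannot be told apart.

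An array, labelled as treated animal 3 of WSB/EiJ, went against its strain label. On 300 probe sets that separate WSB/EiJ (1) from the other strains (0) it lay at 0.05, and on the same scale for NZW/LacJ it lay at 0.978, where the arrays labelled NZW/LacJ lay between 0.941 and 1.03. Its values for 18 of the 34 members lay inside the range of the NZW/LacJ vehicle animals. For 26 members they lay below all WSB/EiJ vehicle animals, and for 11 within the range of the other 2 treated WSB/EiJ animals. Its mean over the cap members was 11.15, against 11.10 to 11.15 in NZW/LacJ vehicle animals and 11.31 to 11.59 in WSB/EiJ vehicle animals. Treated WSB/EiJ animals 1 and 2 stood at 10.95 and 11.13, so the cap mean alone does not separate the 2 strain labels. Treated NZW/LacJ animals had cap means of 10.873 to 11.069. The array's mean over the core members was 11.802, where treated WSB/EiJ animals 1 and 2 stood at 11.468 and 11.67. Core means were 11.773 to 11.846 in vehicle and 11.706 to 11.801 in treated NZW/LacJ animals, and 12.061 to 12.195 in WSB/EiJ vehicle animals. The counts of members and the WSB/EiJ effects of the members described are given with and without it, and without it 2 treated WSB/EiJ animals remain. WSB/EiJ vehicle animal 4 also stood apart, at 0.565 on its own strain's scale.

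Averaged over the 4 strains, proteasome transcripts fell together. Of the 34 members, 31 fell and 1, Psmd8, rose; over all tested genes 8.92% fell and 13.3% rose. The median difference of the members was -0.25, against 0.00 over all tested genes. On the linear scale the members that fell lay between -23.2% for Psmc1 and -7.63% for Psmd13. Without the array in doubt the counts were again 31 lower and 1 higher, where 14.2% of tested genes fell and 18.4% rose. The average rested in part on WSB/EiJ. Over the other 3 strains 25 members fell and 1 rose. No share of tested genes was counted for the fit without WSB/EiJ. Psma1, Psma3, Psma6, Psmb1, Psmd2 and Psmd13 did not pass without that strain, and their averages then lay between -0.05 and 0.00.

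Both the core and the cap took part. All 14 core members fell, with a median of -0.18 and a range of -0.32 to -0.12. Of the 20 cap members 17 fell and 1 rose, with a median of -0.28 and a range of -0.38 to 0.19. Within the core, the 7 alpha subunits, which form the gate of the barrel, had a median of -0.21, and the 7 beta subunits, which line its chamber, a median of -0.18. The 6 ATPases of the cap, Psmc1 to Psmc6, all fell, with a median of -0.29. The base subunits Psmd1 and Psmd2, which hold the ATPase ring and shuttle factors, and Psmd4, a ubiquitin receptor, fell too, with a median of -0.32. Of the 8 lid subunits 7 fell. The 3 chaperones that help the ATPase ring to assemble did not move as a block: Psmd5 fell by 0.31 ± 0.06 (adjusted p = 0.00023, limma), while Psmd9 stood at 0.08 (adjusted p = 0.48) and Psmd10 at -0.07 (adjusted p = 0.305). Whether core and cap differ in their average fall was not tested.

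**Figure D1:**
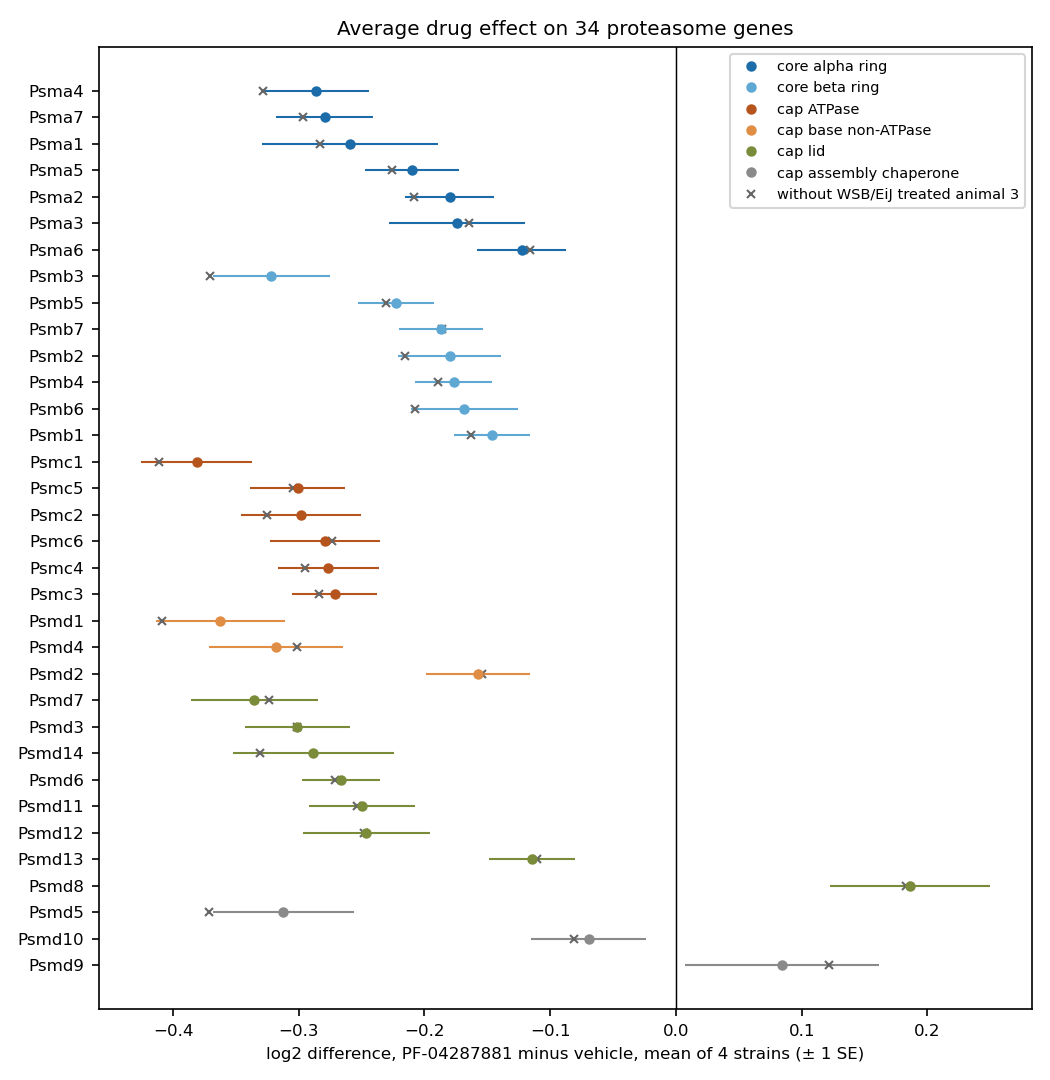
Average log2 difference, PF-04287881 minus vehicle, over 4 strains for each of the 34 genes (points, with ± 1 standard error; 15 treated and 16 vehicle arrays), coloured by place in the complex, with crosses for the fit without WSB/EiJ treated animal 3. All 14 core genes lie between -0.32 and -0.12, and Psmd8 and Psmd9 are the points to the right of 0.

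The strains differed in how far the transcripts fell. Of the 34 members 31 fell in WSB/EiJ (12.4% of tested genes did so) and 17 in SM/J (0.993%). The count was 10 in NZW/LacJ (6.4%) and 1 in MA/MyJ, the chaperone Psmd5 (0.978%). The adjustment was made within each strain, so these counts do not share 1 cutoff. By limma's unadjusted p under 0.05, 32 members were lower in WSB/EiJ, 29 in SM/J, 12 in NZW/LacJ and 6 in MA/MyJ. No share of tested genes was counted at an unadjusted p, here or below, so those counts are not set against all genes. The medians of the members were -0.41, -0.28, -0.12 and -0.04 in that order, and those of all tested genes lay between 0.00 and 0.02. In no strain did a member rise by limma's adjusted p, where 6.91%, 1.6%, 15.1% and 3.17% of tested genes rose in the same order. With array weights 1 member passed as higher in MA/MyJ and 1 in SM/J, as did 1 in MA/MyJ when its arrays were fitted alone. At an unadjusted p under 0.05, 1 member, Psmd8, was higher in SM/J and in MA/MyJ, and 0 were higher in WSB/EiJ and NZW/LacJ. No member fell in all 4 strains by the adjusted p; 7 did so in 3 strains, 13 in 2 strains, 12 in 1 strain and 2, Psmd8 and Psmd9, in none. By direction alone, 19 members were below 0 in all 4 strains. The share of tested genes was not counted for these numbers of strains, by the adjusted p or by direction.

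Leaving out the array in doubt gave 30 falls in WSB/EiJ (18.6% of tested genes), 19 in SM/J (1.99%), 11 in NZW/LacJ (8.35%) and 2 in MA/MyJ (2.09%). The count in SM/J depended on single animals. It was 8 without treated animal 1 or treated animal 3, 10 without vehicle animal 3 and 11 without vehicle animal 1. The single call in MA/MyJ was lost without vehicle animal 1, treated animal 2 or treated animal 4, with 6, 5 and 4 members lower at an unadjusted p under 0.05. It became 2 calls without SM/J treated animal 4 or WSB/EiJ vehicle animal 4.

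Another view of the same values counts the members whose treated animals all lay below all vehicle animals of the strain. These were 23 in WSB/EiJ (7.8% of tested genes), 23 in SM/J (7.15%), 16 in NZW/LacJ (11.9%) and 7 in MA/MyJ (6.09%). Without the array in doubt the count in WSB/EiJ was 29 (20.0%). In MA/MyJ, Psmd8 was the 1 member with all treated animals above all vehicle animals. The share of tested genes that did so is not given here.

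**Figure D2:**
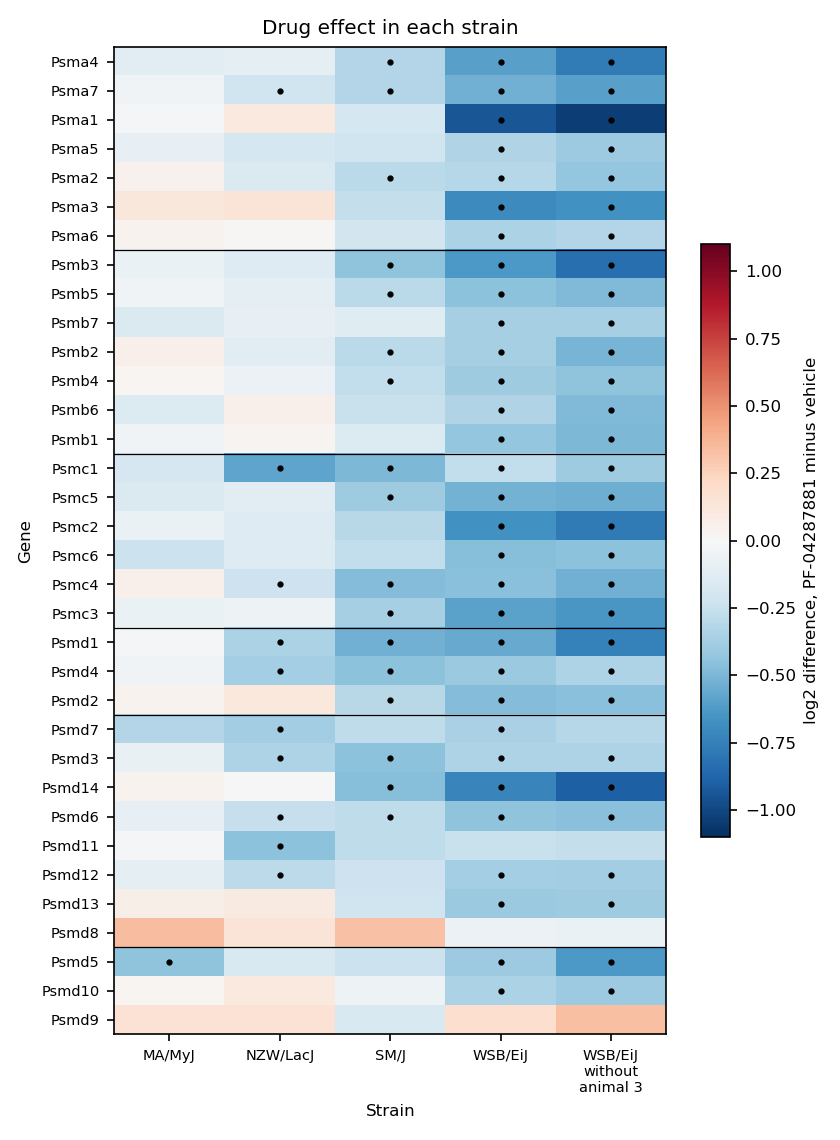
Log2 difference, PF-04287881 minus vehicle, for each gene (vertical, grouped from top to bottom as alpha ring, beta ring, ATPases, base, lid and chaperones) in each strain (horizontal), with WSB/EiJ also shown without treated animal 3. Blue is lower and red higher after treatment, and a dot marks an adjusted p under 0.05; 31 genes carry a dot in WSB/EiJ and 1 in MA/MyJ.

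The difference between strains was itself tested. An F test across the 4 strain effects, in the same limma model, passed for 20 of 34 members, 11 core and 9 cap (19.4% of tested genes), and for 25 without the array in doubt (32.4%). Psmc3 (adjusted p = 0.000544, limma) and Psma3 (0.000677) had the smallest values. Set against the mean of the other strains, the fall in WSB/EiJ was deeper for 18 members (13.9% of tested genes), 10 of the 14 core and 8 of the 20 cap members, and shallower for none (5.92%), with 0 members shallower also at an unadjusted p under 0.05. That count was 24 without the array in doubt (19.6%) and 10 without WSB/EiJ treated animal 1. WSB/EiJ showed the largest fall of the 4 strains in 26 members, SM/J in 4, NZW/LacJ in 3 and MA/MyJ in 1. Without the array in doubt WSB/EiJ did so in 28 members, SM/J in 3 and NZW/LacJ in 3. The share of tested genes was not counted for this ranking.

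A contrast along the coded microscopic finding asks whether the effect follows the vacuolation of Kupffer cells. The mean effect in the coded strains, MA/MyJ and NZW/LacJ, was less negative than in SM/J and WSB/EiJ for 21 members, 11 core and 10 cap (12.5% of tested genes moved that way). By limma 0 members moved the other way (4.48%), and 0 did so at an unadjusted p under 0.05. The median contrast was 0.29, against 0.01 over all genes. Without the array in doubt 22 members passed (18.0%). For the necrosis coding, NZW/LacJ against the other strains, 7 members were less negative (11.3%). The count was 11 without the array in doubt (15.6%) and 4 without NZW/LacJ vehicle animal 1. By limma's adjusted p 0 were more negative (3.8%), and 2 were at an unadjusted p under 0.05. With 4 strains, the coding cannot be told apart from any other trait that the same strains share.

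Among the core subunits, Psmb3 (probe set 1417052_at), a structural beta subunit, had the largest average fall, 0.32 ± 0.05 (-20.0%, adjusted p = 1.96e-05, limma). In SM/J the vehicle animals read 12.62, 12.46, 12.53 and 12.61 and the treated animals 12.01, 12.24, 12.05 and 12.16. In WSB/EiJ the vehicle animals read 12.62, 12.50, 12.37 and 12.46 and the treated animals 11.59, 11.72 and, on the array in doubt, 12.24. All treated animals of both strains lay below all vehicle animals. In MA/MyJ vehicle animals read 12.37, 12.42, 12.39 and 12.48 and treated animals 12.36, 12.38, 12.38 and 12.25. In NZW/LacJ vehicle animals read 12.14, 12.24, 12.27 and 12.25 and treated animals 12.09, 12.02, 12.08 and 12.16. The groups overlapped in these strains. The difference was -0.44 ± 0.09 in SM/J (adjusted p = 0.00881) and -0.63 ± 0.10 in WSB/EiJ (7.54e-05), or -0.83 ± 0.08 there without the array in doubt. It was -0.07 in MA/MyJ (adjusted p = 0.739) and -0.14 in NZW/LacJ (0.299).

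Psma4 (1460339_at), an alpha ring subunit, fell by 0.29 ± 0.04 on average (-18.0%, adjusted p = 2.37e-05, limma). Vehicle animals of MA/MyJ read 12.67, 12.66, 12.65 and 12.79 and treated animals 12.58, 12.53, 12.62 and 12.59. Vehicle animals of NZW/LacJ read 12.53, 12.56, 12.55 and 12.60 and treated animals 12.51, 12.50, 12.49 and 12.32. In both strains every treated animal lay below every vehicle animal, by a narrow margin. Vehicle animals of SM/J read 12.87, 12.80, 12.80 and 12.79 and treated animals 12.53, 12.49, 12.42 and 12.52. Vehicle animals of WSB/EiJ read 12.78, 12.82, 12.81 and 12.55 and treated animals 11.94, 12.01 and 12.49, the last on the array in doubt. There too the groups did not overlap, so Psma4 was separated in all 4 strains. Its fall passed in SM/J (-0.32 ± 0.08, adjusted p = 0.0308) and WSB/EiJ (-0.60 ± 0.09, 4.95e-05; -0.77 ± 0.07 without the array in doubt), and the differences were -0.12 in MA/MyJ (0.493) and -0.11 in NZW/LacJ (0.392).

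Psma7 (1423567_a_at), another alpha ring subunit, was the core member that also fell in NZW/LacJ. Its vehicle animals read 11.15, 11.29, 11.19 and 11.20 in NZW/LacJ and its treated animals 10.98, 10.92, 11.04 and 11.00. The groups did not overlap. In SM/J vehicle animals read 11.48, 11.51, 11.61 and 11.47 and treated animals 11.03, 11.19, 11.10 and 11.46, the last just below the lowest vehicle value. In WSB/EiJ vehicle animals read 11.64, 11.64, 11.52 and 11.52 and treated animals 10.92, 11.05 and 11.19, with a clear gap between them. MA/MyJ overlapped throughout, with vehicle values of 10.93, 11.11, 11.02 and 11.17 and treated values of 11.03, 10.96, 11.06 and 11.00. The differences were -0.22 ± 0.08 in NZW/LacJ (adjusted p = 0.0351), -0.33 ± 0.08 in SM/J (0.0174), -0.52 ± 0.08 in WSB/EiJ (7.67e-05; -0.59 ± 0.09 without the array in doubt) and -0.04 in MA/MyJ (0.833).

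Psma3 (1448442_a_at), an alpha ring subunit, and the ATPase Psmc3 had the clearest strain differences. Psma3 vehicle animals of WSB/EiJ read 11.48, 11.51, 11.37 and 11.34 and treated animals 10.62, 10.91 and, on the array in doubt, 10.64. Every treated value lay well below the lowest vehicle value. In SM/J vehicle animals read 11.33, 11.31, 11.34 and 11.06 and treated animals 10.80, 11.07, 10.87 and 11.25. In MA/MyJ vehicle animals read 10.79, 10.90, 10.66 and 11.12 and treated animals 10.82, 11.02, 11.11 and 11.03. In NZW/LacJ vehicle animals read 10.69, 10.77, 10.61 and 10.63 and treated animals 10.95, 10.94, 10.81 and 10.58. The groups overlapped in these 3 strains, and in MA/MyJ and NZW/LacJ most treated values lay on the upper side. Psma3 fell by 0.70 ± 0.11 in WSB/EiJ (-38.5%, adjusted p = 0.000131, limma), or by 0.66 ± 0.13 without the array in doubt, and its difference was -0.26 in SM/J (0.224), 0.13 in MA/MyJ (0.582) and 0.14 in NZW/LacJ (0.376). It fell on average by 0.17 ± 0.05 (adjusted p = 0.0212), and over the 3 strains other than WSB/EiJ the average was 0.0016 (0.988).

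The cutting subunits shared the pattern in WSB/EiJ. Psmb5 (1415676_a_at), which carries the chymotrypsin-like activity, read 12.56, 12.62, 12.52 and 12.41 in WSB/EiJ vehicle animals and 11.95, 12.13 and 12.14 in treated animals. In SM/J it read 12.44, 12.29, 12.41 and 12.27 against 12.04, 12.10, 12.00 and 12.09. The groups were apart in both strains. In MA/MyJ the values were 12.23, 12.18, 12.20 and 12.31 against 12.17, 12.19, 12.24 and 12.15. In NZW/LacJ they were 12.08, 12.12, 12.10 and 12.12 against 12.10, 11.89, 11.99 and 12.03. Here the groups overlapped, in NZW/LacJ through 1 treated animal. Psmb5 fell by 0.45 ± 0.06 in WSB/EiJ (-27.0%, adjusted p = 2.8e-05, limma), or 0.49 ± 0.07 without the array in doubt, and by 0.29 ± 0.06 in SM/J (-18.4%, 0.00803).

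Psmb6 (1448822_at), the subunit with caspase-like activity, showed little difference in NZW/LacJ: vehicle animals read 11.38, 11.46, 11.44 and 11.50 and treated animals 11.55, 11.39, 11.52 and 11.54. In MA/MyJ all treated values (11.49, 11.44, 11.51 and 11.47) lay below the vehicle values (11.55, 11.66, 11.57 and 11.73). The same held in SM/J, where vehicle animals read 11.05, 11.03, 11.06 and 11.01 and treated animals 10.68, 10.85, 10.77 and 10.86. In WSB/EiJ vehicle animals read 11.58, 11.55, 11.39 and 11.60 and treated animals 10.89, 11.19 and 11.51, and only the array in doubt reached the vehicle range. With all arrays the fall passed in WSB/EiJ (0.33 ± 0.09, adjusted p = 0.0117, limma), and the differences were -0.25 in SM/J (0.126) and -0.15 in MA/MyJ (0.355). Without that array Psmb6 fell by 0.49 ± 0.08 in WSB/EiJ (4.09e-05), the difference in SM/J passed too (0.026), and that in MA/MyJ did not (0.169).

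Psmb7 (1416240_at), the subunit with trypsin-like activity, read 12.73, 12.87, 12.75 and 12.79 in WSB/EiJ vehicle animals and 12.32, 12.52 and 12.41 in treated animals. These groups did not overlap, and the difference was -0.37 ± 0.07 (-22.5%, adjusted p = 0.000584, limma), or -0.36 ± 0.08 without the array in doubt. In MA/MyJ vehicle values of 12.53, 12.59, 12.54 and 12.68 stood above treated values of 12.46, 12.32, 12.52 and 12.44, again without overlap. The groups overlapped in SM/J (12.84, 12.73, 12.75 and 12.56 against 12.51, 12.57, 12.56 and 12.72) and in NZW/LacJ (12.54, 12.52, 12.45 and 12.58 against 12.40, 12.45, 12.38 and 12.48). The differences did not pass: -0.15 in MA/MyJ (adjusted p = 0.189), -0.13 in SM/J (0.356) and -0.09 in NZW/LacJ (0.331). The largest fall of any member in 1 strain was that of the core gene Psma1, an alpha ring subunit, in WSB/EiJ: 0.94 ± 0.15 (-47.9%, adjusted p = 9.01e-05), from a mean of 11.46 ± 0.19 (SD, n = 4) to 10.52 ± 0.48 (SD, n = 3). Without the array in doubt Psma1 fell there by 1.03 ± 0.17 (3.22e-05, limma).

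**Figure D3:**
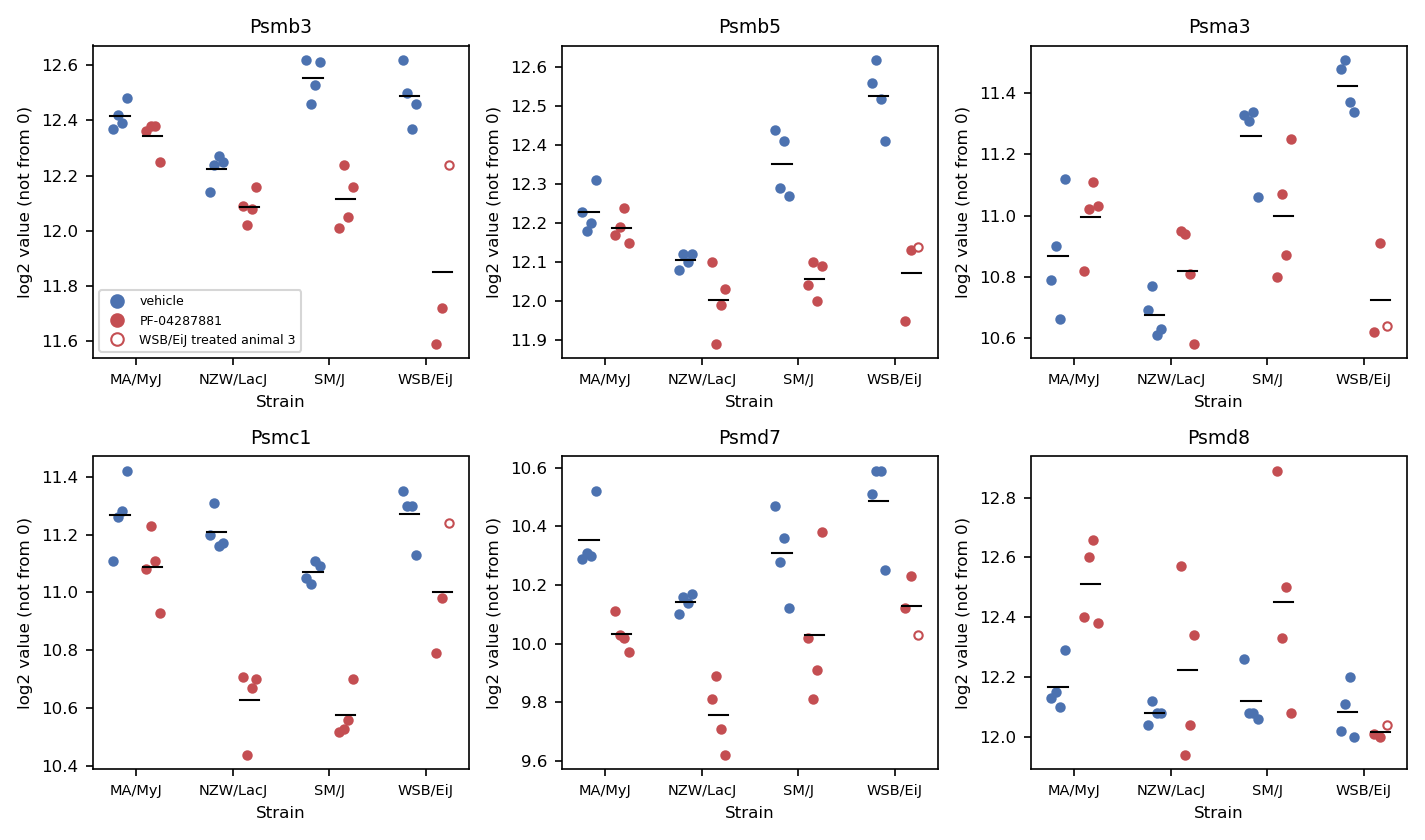
Log2 value of Psmb3, Psmb5, Psma3, Psmc1, Psmd7 and Psmd8 in every animal, by strain (blue vehicle, red PF-04287881, open circle WSB/EiJ treated animal 3; bars are group means; the vertical axes do not start at 0). Psma3 is separated in WSB/EiJ only, Psmc1 is lowest in treated NZW/LacJ and SM/J, and Psmd8 is the gene with treated means above the vehicle means in all strains but WSB/EiJ.

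In the cap, Psmc1 (1416005_at), an ATPase of the unfolding ring, had the largest average fall of all members, 0.38 ± 0.04 (-23.2%, adjusted p = 1.03e-06, limma). Its largest difference was in NZW/LacJ. In NZW/LacJ vehicle animals read 11.20, 11.31, 11.16 and 11.17 and treated animals 10.71, 10.44, 10.67 and 10.70. In SM/J vehicle animals read 11.05, 11.03, 11.11 and 11.09 and treated animals 10.52, 10.53, 10.56 and 10.70. Both strains showed a clear gap between the groups. In MA/MyJ (11.11, 11.26, 11.28 and 11.42 against 11.08, 11.23, 11.11 and 10.93) the groups overlapped. In WSB/EiJ (11.35, 11.30, 11.30 and 11.13 against 10.79, 10.98 and 11.24) they overlapped through the array in doubt. The falls were 0.58 ± 0.09 in NZW/LacJ (-33.2%, adjusted p = 2.89e-05), 0.49 ± 0.09 in SM/J (0.00277) and 0.27 ± 0.09 in WSB/EiJ (0.0431), or 0.39 ± 0.09 there without that array (0.00229). The difference was -0.18 in MA/MyJ (0.262). The F test between strains gave an adjusted p of 0.0507, and 0.0262 without that array, so the call of a strain difference rests on whether it is kept.

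Psmc3 (1416282_at), another ATPase of the ring, followed WSB/EiJ and SM/J. WSB/EiJ vehicle animals read 11.89, 11.95, 11.73 and 11.86 and treated animals 11.20, 11.24 and 11.37. SM/J vehicle animals read 11.85, 11.71, 11.78 and 11.60 and treated animals 11.29, 11.35, 11.32 and 11.53. The groups were apart in both. In MA/MyJ (11.55, 11.63, 11.49 and 11.64 against 11.52, 11.50, 11.56 and 11.44) and in NZW/LacJ (11.29, 11.38, 11.35 and 11.39 against 11.38, 11.19, 11.31 and 11.29) they overlapped. Psmc3 fell by 0.59 ± 0.07 in WSB/EiJ (-33.4%, adjusted p = 5.54e-06, limma), or 0.64 ± 0.08 without the array in doubt, and by 0.37 ± 0.07 in SM/J (0.00334). Its differences were -0.07 in MA/MyJ (0.618) and -0.06 in NZW/LacJ (0.58).

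Psmd1 (1429291_at), the scaffold of the base, fell by 0.36 ± 0.05 on average (-22.2%, adjusted p = 1.49e-05, limma) and passed in 3 strains. In NZW/LacJ vehicle animals read 11.56, 11.55, 11.53 and 11.55 and treated animals 11.31, 11.10, 11.22 and 11.18. In SM/J vehicle animals read 11.80, 11.71, 11.77 and 11.71 and treated animals 11.21, 11.17, 11.13 and 11.38. All treated animals lay below all vehicle animals. The same held in WSB/EiJ, with 11.92, 11.96, 11.72 and 11.75 against 11.02, 11.18 and 11.65, the last on the array in doubt. In MA/MyJ the values (11.51, 11.61, 11.48 and 11.83 against 11.62, 11.70, 11.62 and 11.40) were mixed. The falls were 0.35 ± 0.10 (NZW/LacJ, adjusted p = 0.0144), 0.53 ± 0.10 (SM/J, 0.00468) and 0.56 ± 0.11 (WSB/EiJ, 0.000729; 0.74 ± 0.10 without the array in doubt), with -0.02 in MA/MyJ (0.949).

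Psmd4 (1418874_a_at), the ubiquitin receptor of the base, also fell in NZW/LacJ, SM/J and WSB/EiJ. NZW/LacJ animals read 11.97, 12.09, 12.03 and 12.00 on vehicle and 11.79, 11.54, 11.62 and 11.64 on the drug. SM/J animals read 12.44, 12.29, 12.39 and 12.31 on vehicle and 11.85, 11.82, 11.88 and 12.07 on the drug. Neither strain overlapped. WSB/EiJ animals read 12.63, 12.80, 12.74 and 12.29 on vehicle and 12.12, 12.43 and 12.08 on the drug, and MA/MyJ animals read 12.49, 12.29, 12.30 and 12.51 against 12.27, 12.62, 12.43 and 12.12. Both of these overlapped. The falls were 0.38 ± 0.10 in NZW/LacJ (-23.0%, adjusted p = 0.0105, limma), 0.45 ± 0.10 in SM/J (0.0171) and 0.41 ± 0.11 in WSB/EiJ (0.0125; 0.34 ± 0.13 without the array in doubt, 0.0384), against -0.04 in MA/MyJ (0.912).

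Psmd7 (1451056_at), a lid subunit that pairs with the deubiquitinase Psmd14, was the member most alike across strains. MA/MyJ animals read 10.29, 10.31, 10.30 and 10.52 on vehicle and 10.11, 10.03, 10.02 and 9.97 on the drug. NZW/LacJ animals read 10.10, 10.16, 10.14 and 10.17 on vehicle and 9.81, 9.89, 9.71 and 9.62 on the drug. These groups were clearly apart. WSB/EiJ animals read 10.51, 10.59, 10.59 and 10.25 against 10.12, 10.23 and 10.03, apart by a narrow margin, and SM/J animals read 10.47, 10.28, 10.36 and 10.12 against 10.02, 9.81, 9.91 and 10.38, where treated animal 4 lay among the vehicle animals. The fall passed in NZW/LacJ (-0.38 ± 0.10, adjusted p = 0.00664, limma) and WSB/EiJ (-0.36 ± 0.11, 0.0199), and the differences were -0.32 in MA/MyJ (0.0635) and -0.28 in SM/J (0.16). The F test between strains gave the largest adjusted p of the members, 0.922. With the array in doubt left out, the adjusted p was 0.0507 in WSB/EiJ and 0.0463 in MA/MyJ.

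Psmd14 itself, which cleaves the ubiquitin chain, ranged widely. It fell by 0.73 ± 0.14 in WSB/EiJ (-39.5%, adjusted p = 0.000489, limma), or 0.90 ± 0.14 without the array in doubt, and by 0.47 ± 0.13 in SM/J (0.0402), while its differences in MA/MyJ and NZW/LacJ were 0.04 (0.931) and 0.01 (0.978). Other lid subunits fell in other strains: Psmd11 fell in NZW/LacJ by 0.45 ± 0.08 (-27.0%, adjusted p = 0.00029) and stood at -0.25 in WSB/EiJ (0.0547; -0.26 without the array in doubt, 0.0529).

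Psmd5 (1423234_at), a chaperone of the ATPase ring, was the member called in MA/MyJ. MA/MyJ animals read 10.02, 10.02, 9.94 and 10.08 on vehicle and 9.69, 9.47, 9.60 and 9.53 on the drug, with a gap between the groups. NZW/LacJ animals read 10.06, 9.98, 10.09 and 10.04 against 9.96, 9.89, 9.86 and 9.78, and SM/J animals 10.01, 9.98, 10.08 and 10.00 against 9.89, 9.79, 9.73 and 9.72. These were separated by smaller margins. WSB/EiJ animals read 9.84, 10.13, 9.99 and 9.70 on vehicle and 9.15, 9.41 and, on the array in doubt, 9.99 on the drug, so that array alone overlapped. Psmd5 fell by 0.44 ± 0.11 in MA/MyJ (-26.5%, adjusted p = 0.0191, limma) and by 0.40 ± 0.12 in WSB/EiJ (0.0202), or 0.63 ± 0.09 there without that array (1.04e-05). Its differences were -0.17 in NZW/LacJ (0.289) and -0.24 in SM/J (0.311). The F test between strains gave an adjusted p of 0.46, and 0.0124 without that array.

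Psmd8 (1423296_at) encodes a lid subunit. The average effect of Psmd8 was a rise of 0.19 ± 0.06 (13.8%, adjusted p = 0.0349, limma), a call that was lost when array medians were centred (0.15, adjusted p = 0.0567), with animal number as a block (0.18, 0.0552) and in 10 of 31 fits that each left out 1 array. MA/MyJ animals read 12.13, 12.15, 12.10 and 12.29 on vehicle and 12.40, 12.60, 12.66 and 12.38 on the drug, all above. NZW/LacJ animals read 12.04, 12.12, 12.08 and 12.08 against 12.57, 11.94, 12.04 and 12.34, and SM/J animals 12.26, 12.08, 12.08 and 12.06 against 12.89, 12.33, 12.50 and 12.08. In NZW/LacJ the treated values of 12.57 and 12.34 were the highest, 12.04 lay at the lowest vehicle value and 11.94 lay below it. In SM/J the treated value of 12.08 lay within the vehicle range and the other treated values above it. WSB/EiJ animals read 12.02, 12.11, 12.20 and 12.00 against 12.01, 12.00 and 12.04, with no shift. The differences were 0.34 in MA/MyJ (adjusted p = 0.123), 0.33 in SM/J (0.19), 0.14 in NZW/LacJ (0.45) and -0.06 in WSB/EiJ (0.791; -0.08 without the array in doubt, 0.752).

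Scores per animal put the core and the cap side by side. A score is the mean over the members of an animal's log2 value minus the mean of the vehicle animals of its strain, and no test was made of it. The core score of the treated animals was -0.48 ± 0.17 in WSB/EiJ (SD, n = 3). It was -0.26 ± 0.10 in SM/J, -0.06 ± 0.04 in NZW/LacJ and -0.03 ± 0.02 in MA/MyJ (SD, n = 4 each). The cap score was -0.40 ± 0.11, -0.30 ± 0.08, -0.16 ± 0.08 and -0.06 ± 0.09 in the same order. In WSB/EiJ without the array in doubt, the scores were -0.56 for the core and -0.43 for the cap (n = 2).

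The balance of core and cap differed in sign between NZW/LacJ and WSB/EiJ, a difference that was not tested. The core score minus the cap score was 0.06, 0.16, 0.08 and 0.11 in the treated NZW/LacJ animals, above the vehicle range of -0.04 to 0.02. It was -0.14, -0.11 and, on the array in doubt, -0.004 in the treated WSB/EiJ animals, where vehicle animals ranged from -0.08 to 0.10. It lay on both sides of 0 in SM/J (-0.03 to 0.08) and in MA/MyJ (-0.06 to 0.14). By gene, NZW/LacJ had 9 of 20 cap members and 1 of 14 core members among its falls, and the deepest were those of Psmc1, Psmd11, Psmd7 and Psmd4. In WSB/EiJ all 14 core members and 17 of 20 cap members fell.

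**Figure D4:**
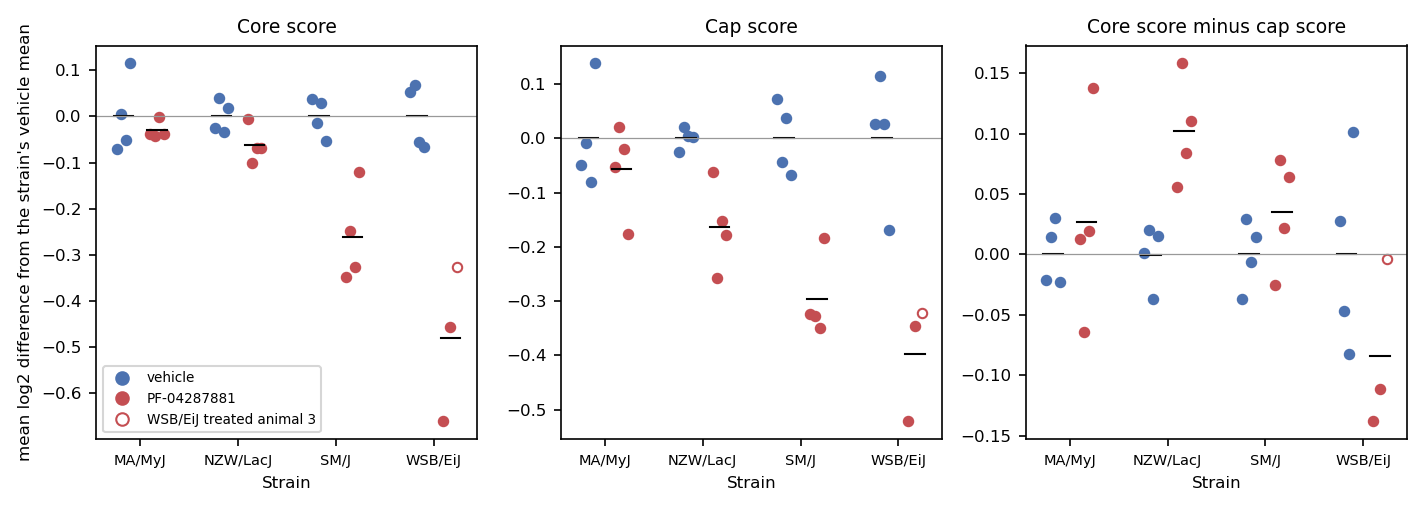
Core score, cap score and their difference for every animal, as mean log2 difference from the vehicle animals of the same strain (blue vehicle, red PF-04287881, open circle WSB/EiJ treated animal 3; bars are group means). The group means of treated WSB/EiJ are lowest in both scores, while single WSB/EiJ and SM/J animals overlap, and all 4 treated NZW/LacJ animals have a core score above their cap score, by 0.06 to 0.16.

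The strains began from different levels. In vehicle animals the strain means differed for 26 of 34 members (56.5% of tested genes). The direction was shared: NZW/LacJ was lower than the mean of the other strains for 25 members (16.9% of tested genes), 11 core and 14 cap, and WSB/EiJ was higher for 20 (20.7%), 7 core and 13 cap. SM/J was higher for 7 (9.97%) and lower for 2 (10.7%), Psmb6 and Psmd11. MA/MyJ was higher for 2 (12.0%), Psmb6 and Psmd10, and lower for 4 (8.15%). The lowest strain was NZW/LacJ for 28 members, and the highest was WSB/EiJ for 22, with no share of tested genes counted for these ranks. Among the ATPases, Psmc5 was 0.34 higher in WSB/EiJ (adjusted p = 9.19e-05, limma), and in NZW/LacJ its difference was -0.40 (2.03e-05). Psmb6 was the exception of the core, with a difference of -0.50 in SM/J (7.04e-06). Whether strain differences in the sequence under the probes move these levels was not tested.

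After treatment the order of the strains was another. The mean over the core members was 12.13 in vehicle animals of WSB/EiJ, 12.06 in SM/J, 11.91 in MA/MyJ and 11.81 in NZW/LacJ. In treated animals it was 11.88 in MA/MyJ, 11.80 in SM/J, 11.75 in NZW/LacJ and 11.65 in WSB/EiJ (11.57 without the array in doubt). The cap members went from 11.47, 11.34, 11.32 and 11.13 in WSB/EiJ, SM/J, MA/MyJ and NZW/LacJ to 11.08, 11.05, 11.26 and 10.97. With the array in doubt left out, treated MA/MyJ was the highest strain for 22 members, and the lowest was WSB/EiJ for 16 and NZW/LacJ for 14. For these ranks too, the share of tested genes was not counted. The gap between the highest and the lowest strain mean had a median over the members of 0.39 in vehicle animals and 0.36 in treated animals (0.40 without the array in doubt). Over all tested genes the same median was 0.394 in vehicle animals and 0.404 in treated animals (0.477 without the array in doubt). The treated levels differed between strains for 26 members (55.5% of tested genes), 8 core and 18 cap, and for 28 (65.5%) without the array in doubt. The effect and the vehicle level of a strain share the same vehicle animals, so the values are only set side by side.

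**Figure D5:**
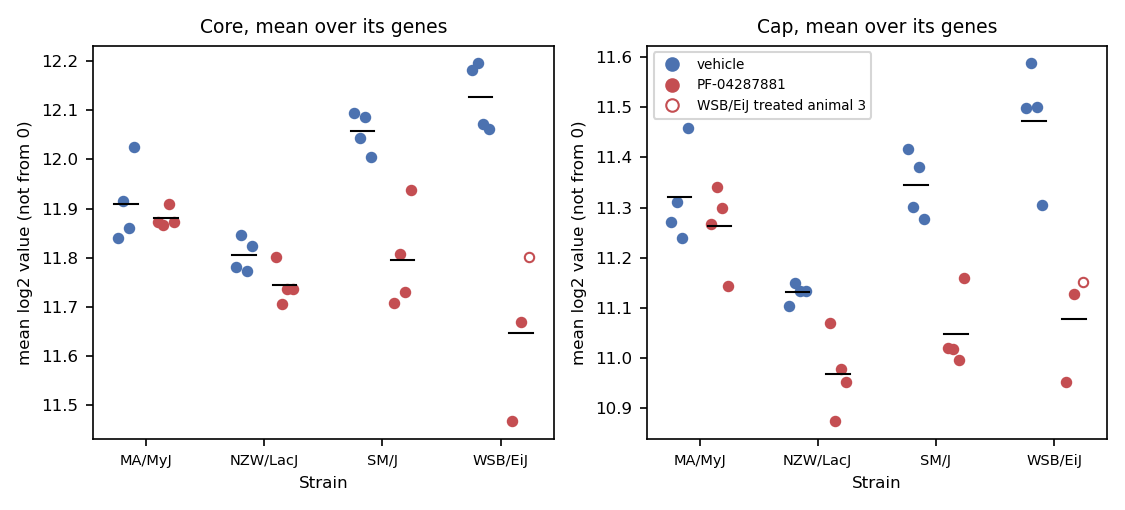
Mean log2 value over the 14 core genes and over the 20 cap genes for every animal, by strain and treatment (blue vehicle, red PF-04287881, open circle WSB/EiJ treated animal 3; bars are group means; the vertical axes do not start at 0). WSB/EiJ has the highest vehicle mean and, in the core, the lowest treated mean, while the means of MA/MyJ lie close together.

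The members also moved together among animals of 1 group. After each group mean was taken away, the median correlation over the 31 arrays was 0.56 between pairs of core members, 0.49 between cap members and 0.47 between core and cap, against 0.00 between pairs of tested genes. These arrays share their processing, and the correlations are given as a description. Psmc2 and Psmc4, both ATPases of the ring, followed the mean of the other members most closely, at 0.88 each. Psmd8, at 0.06, and the chaperone Psmd9, at 0.25, followed it least.

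Other probe sets of the same genes gave the same direction in nearly all cases. Of 54 probe sets of members whose mean lay above the brightness level, 52 had an average difference below 0. Of the 11 members with more than 1 such probe set, 10 agreed in sign among themselves. The exception was Psmd9, at 0.08 in the probe set used and -0.24 in another. Psmd11, with 7 such probe sets, ranged from -0.51 to -0.14. The probe sets used for Psma6 and Psmd11 (1437144_x_at and 1437080_s_at) are of the kinds that can bind related transcripts.

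Genes that work with the proteasome moved less uniformly than its subunits. For this list and those that follow, 8.92% of tested genes fell on average and 13.3% rose. Without the array in doubt these shares were 14.2% and 18.4%. Of 16 regulators, activators and assembly factors tested, 4 fell on average: Ublcp1, a phosphatase of the nuclear proteasome (-0.27 ± 0.05, adjusted p = 0.000453, limma), Usp14, a deubiquitinase bound to the cap (-0.23), Psmg1, a chaperone of the alpha ring (-0.23), and Psme3, a nuclear activator (-0.13). Psmg1 passed in WSB/EiJ alone, at -0.70 (-0.84 without the array in doubt), as did Pomp, the maturation factor of the core, at -0.43 (-0.54). The median of that list was -0.05, and 6 of its genes fell on average without that array. Psme3 and Pomp were named after their values were seen.

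The 3 immunoproteasome subunits, the inducible replacements of the cutting subunits, rose on average. Their average differences were 0.63 ± 0.10 for Psmb8 (adjusted p = 4.71e-05, limma), 0.41 ± 0.14 for Psmb9 (0.0342) and 0.40 ± 0.09 for Psmb10 (0.00191). All 3 rose in NZW/LacJ, by 0.87, 1.40 and 1.17, and Psmb8 rose in SM/J by 0.78. In WSB/EiJ the values were 0.28, -0.77 and -0.20 and none passed. Leaving out the array in doubt, the average of Psmb9 was 0.33 (0.0599), and Psmb9 fell in WSB/EiJ by 1.06 (0.00978). Immune cells are known to express these genes strongly, and the part of such cells in these values was not tested.

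Another list held genes of NRF1 activation and of proteasome gene control, so not only activators of NRF1. Of its 10 tested genes, 5 fell and 1 rose on average (6 and 1 without the array in doubt), with a median of -0.11. Syvn1, a ubiquitin ligase of the endoplasmic reticulum, stood at -0.28 ± 0.09 (adjusted p = 0.0252, limma), and Nploc4 and Vcp, parts of the machine that pulls proteins out of that membrane, at -0.22 each. Nfe2l1 itself rose by 0.22 ± 0.06 (0.0112), and was named after its value was seen. Of 7 ubiquitin and shuttle genes, 3 fell, among them Uba6 (-0.36), a ubiquitin-activating enzyme, and Ubqln1 (-0.21), a shuttle to the proteasome, and 1 rose, Nbr1 (0.18), a receptor of autophagy; without the array in doubt 3 fell and 2 rose.

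Other large complexes were taken for comparison. Of the 8 genes of TRiC, a chaperonin of the cytosol, 4 fell (4 also without the array in doubt), with a median of -0.11; Tcp1 (-0.22), Cct6a (-0.21) and Cct3 (-0.20) had the largest changes. Of 16 genes of the vacuolar proton pump, which acidifies lysosomes, 11 rose (14 without the array in doubt), with a median of 0.24, led by Atp6v0b (0.45), Atp6v1e1 (0.35) and Atp6v0d2 (0.35). Among the markers of liver cells, 12 of 13 Kupffer cell and macrophage markers rose on average, 7 of 9 markers of sinusoidal endothelium fell, and of 10 hepatocyte markers 1 rose and the median was -0.02. Leaving out the array in doubt gave 12 higher, 7 lower and 1 higher, and 2 higher in these lists. The mean of the macrophage markers ran from 9.34 to 10.48 in treated MA/MyJ against 8.20 to 8.47 in vehicle animals, and from 8.93 to 9.66 in treated SM/J against 8.69 to 9.14. In NZW/LacJ it ran from 8.91 to 10.80 against 8.71 to 9.19, and in WSB/EiJ from 8.97 to 9.07 against 7.44 to 8.07. All 13 were bright enough to be tested. The part of these cells in the proteasome result was not tested.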

How the data were processed

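The members, the lists beside them and the tests were chosen with earlier results of these data known. The deposited values are log2 units per probe set on a 1-colour Affymetrix array, made by the authors with Affymetrix Power Tools and RMA per the submitters' processing notes, whose versions are not given in the sources used here; RMA corrects background, brings the arrays to 1 distribution and summarises the probes. Array medians lay between 6.43 and 6.54.

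Of 44721 probe sets 34728 carried 1 symbol, 872 several and 9121 none; symbols were updated through Entrez numbers in RefSeq names of GRCm38.p6, which matched 34525 probe sets. Each gene took its probe set with the highest mean, and 12890 genes exceeding the median of all values, 6.485, in at least 3 arrays were tested. With limma 3.58.1 (R 4.3.3, data.table in version 1.17.8), the 31 arrays entered 1 linear model that gave each of the 8 groups its own mean, and eBayes had 3.17 prior and 23 residual degrees of freedom. The procedure was tested on simulated data. Of 100 genes changed by 0.3 in either direction, 78 were recovered for the average effect and 19 to 27 in single strains. Of the genes called for the average effect, 8.42% were false. Precision is limited by how many arrays there are.

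Values in every array are given for the 3 core and 5 cap members with the largest average effect past the threshold, the cutting subunits, each member that passed in the opposite direction and the 2 members with the smallest p between strains; from each related list up to 3 genes are named. Alternatives left out each array, the array in doubt, the dim filter or a strain, averaged the probe sets, centred or weighted the arrays, moderated with a trend, fitted strains alone or blocked by animal number; those named in the closing section as added were chosen after seeing the data.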

Additional observations from a re-analysis of the deposited data

Results flagged for a closer look

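Among 119 groups of 4 animals that were looked at, for the 3 scores and the 14 members described array by array, 11 had 1 animal far from the other 3, and chance gives about 1 in 20 such groups. In the scores these were the core score of MA/MyJ treated animal 3, at -0.001 against -0.043 to -0.038 in the others, and the cap score of SM/J treated animal 4, at -0.184 against -0.349 to -0.323. For Psma4 they were MA/MyJ vehicle animal 4 at 12.79, NZW/LacJ treated animal 4 at 12.32, SM/J vehicle animal 1 at 12.87 and WSB/EiJ vehicle animal 4 at 12.55. The others were Psmb3 in MA/MyJ treated animal 4 (12.25), Psmc1 in NZW/LacJ treated animal 2 (10.44), Psmd7 in MA/MyJ vehicle animal 4 (10.52), Psmd8 in SM/J vehicle animal 1 (12.26) and Psma3 in SM/J vehicle animal 4 (11.06).

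The drug effect differed between strains, by limma's F test across the strain effects, for 20 of the 34 members. Of the members described array by array these were Psmc3 (adjusted p = 0.000544), Psma3 (0.000677), Psmb5 (0.00388), Psmb3 (0.00841), Psma4 (0.0119), Psma7 (0.0155) and Psmd1 (0.0253). The contrast along the vacuolation coding passed for 21 members, that along the necrosis coding for 7, and that of WSB/EiJ against the other strains for 18.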

How the results depend on the processing

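The average effect passed for 26 to 33 members under every alternative run, and the core and cap medians stayed below 0. The counts by strain and for the differences between strains moved more. Apart from the fit without the array in doubt, no share of tested genes is given for these alternatives. In MA/MyJ, in place of 1 call, there were 2 without the array in doubt and without it and WSB/EiJ vehicle animal 4 together, 3 with centred medians, 3 with the strain's arrays alone and 4 with array weights, the last 2 counts holding 1 rise each. In NZW/LacJ centring gave 21 and in SM/J array weights gave 32, of which 1 was a rise. In WSB/EiJ its arrays alone gave 0 by limma, with 28 at an unadjusted p under 0.05, and 9 without the array in doubt; fewer arrays then set the spread. The necrosis contrast gave 7 higher and 0 lower with the settings reported, against 3 with the mean of all probe sets (2 higher, 1 lower), 3 with centring (1 higher, 2 lower), 14 with weights (12 higher, 2 lower), 11 without the array in doubt and 14 without it and WSB/EiJ vehicle animal 4. Centring gave 10 for WSB/EiJ against the others and 13 for the F test, and weights gave 18 (14 higher, 4 lower) for the SM/J vehicle level. Averages changed sign for Psmd9 with the mean of the bright probe sets (-0.076) and, without WSB/EiJ, for Psma3 (0.0016) and Psmd10 (0.0241). The causes were not tested.

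Leaving out each array in turn gave counts of 31 to 32 for the average effect, 0 to 2 in MA/MyJ, 7 to 11 in NZW/LacJ, 8 to 23 in SM/J and 22 to 32 in WSB/EiJ. The range was 19 to 22 for the vacuolation contrast, 4 to 11 for the necrosis contrast, 10 to 24 for WSB/EiJ against the others and 15 to 25 for the F test. The vehicle F test gave 23 to 28 and the treated one 22 to 28. Vehicle levels gave 3 to 7 for MA/MyJ, where vehicle animals 1 and 2 each brought the count to 3, 18 to 26 for NZW/LacJ, 6 to 13 for SM/J and 16 to 23 for WSB/EiJ. The medians ranged from -0.21 to -0.17 for the core and from -0.29 to -0.26 for the cap.

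Whether the animal numbers pair the animals is not known. Of 15 same-numbered pairs, 4 had correlated deviations over 0.1, in a range of -0.522 to 0.413. The SM/J pairs stood at 0.231, 0.155, -0.108 and 0.099. In WSB/EiJ the deviations depend on the array in doubt, so this check cannot exclude pairing. With the number as a replicate block the average effect passed for 30 members, NZW/LacJ for 6, SM/J for 4, the necrosis contrast for 2 and the F test for 11; the block without the array in doubt gave 12 for the necrosis contrast. The alternatives added after seeing the data were the bright probe sets, the joint omission of both WSB/EiJ arrays, the block without the array in doubt, the omission of WSB/EiJ, its arrays alone without the array in doubt and the test of treated levels.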
